A study of Mus musculus with 6 samples.

Results

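Cep290, Rpgrip1l, Nphp4, Ahi1, Arl13b, Inpp5e, Cplane1 and Cspp1 encode cilium proteins whose human counterparts are mutated in Joubert syndrome or nephronophthisis. The 8 genes were taken by symbol from a deposited table of 56359 rows, and each symbol matched a single Ensembl identifier. RNA sequencing had measured that table in C57BL/6 mouse embryos at embryonic day 12, in 3 wild type samples and 3 samples with the genotype Tmem216-/-. The labels call the source embryo; they name neither the part taken nor how the Tmem216 allele was made. Nothing in them ties a sample to an embryo of its own, and p-values here therefore measure the spread between 6 samples, part or all of which may be technical.

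The primary cilium is an antenna of the cell surface that grows from a centriole, the basal body. At its base the transition zone, a gate of Y-shaped links between microtubules and membrane, sorts which proteins enter, and Tmem216 is a membrane protein of that gate. Cep290, Rpgrip1l, Nphp4 and Ahi1 act at the gate, Arl13b and Inpp5e in the ciliary membrane behind it, and Cplane1 and Cspp1 at the basal body and along its microtubules. In the embryo, vertebrate Hedgehog signalling passes through this organelle, and loss of cilium genes disturbs the brain, limbs, eye and kidney.

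For Tmem216, wild type replicates 1, 2 and 3 held 31.0, 30.7 and 17.4 TPM (transcript abundance per length, scaled to a fixed sum in each sample), and the Tmem216-/- replicates held 2.25, 0.51 and 1.39 TPM, so the labels hold. Its log2 fold change was -3.55 (95% interval -4.37 to -2.72; limma adjusted p = 0.0266). Of 16411 genes tested, 17 (0.104%) were called at an adjusted p under 0.05, Tmem216 among them. Leaving out any sample but Tmem216-/- replicate 1 took the adjusted p of Tmem216 past the threshold, to between 0.0551 (without wild type replicate 3) and 0.196 (without wild type replicate 1). Wild type replicates 2 and 3 stood apart from each other, with the lowest correlation of any pair of samples (0.934 over tested genes). The summed level of 10 cardiac muscle markers was 38.3 to 58.9 TPM in wild type, against 846 to 2220 TPM in Tmem216-/-. Of these markers, 10 of 10 were higher in each mutant sample than in any wild type sample, as were 4.75% of all tested genes. The sum of 6 caudal and hindlimb markers was 60.0 to 124 TPM in wild type and lower in every mutant sample, down to 7.62 TPM. All mutant values lay below all wild type values for 4 of these 6, and above them for 0, read against 9.57% of all tested genes in either direction. With abundant and cardiac genes removed and the rest rescaled, limma called 0 of 16563 genes. That 0 of the 8 cilium genes were called there therefore says nothing about them in particular. Sums of 8 neuron, 6 neural progenitor, 5 cycling, 5 fetal hepatocyte and 6 erythroid markers overlapped between the groups. Some varied widely within a group. The hepatocyte sum was 1620, 2050 and 180 TPM in wild type, against 847, 87.5 and 122 TPM in Tmem216-/-. The neuron sum was 1050 TPM in wild type replicate 2 and 2010 TPM in wild type replicate 3. The part of these differences in the members' values was not tested. Of 8 markers of multiciliated cells, Mcidas, Cdc20b and Dnah5 were under 1 TPM in every sample. For 3 of the 8 all mutant values lay below all wild type values, for 0 of 8 above. Of all tested genes, 9.57% did not overlap in either direction. The 8 multiciliated markers summed to 12.4 to 21.4 TPM in wild type, against 10.1 to 14.5 TPM in Tmem216-/-. The part of this in the members' values was not tested. In bulk RNA of this kind, fewer cells of a type and less RNA per cell cannot be told apart.

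Cspp1 was the highest of the 8 genes, with a mean of 40.8 TPM over the 6 samples, and lay above every other member in each sample. Ahi1 and Inpp5e (19.5 TPM) followed and were not separable, since their ranges overlapped and Ahi1 was higher in 4 of 6 samples. Cplane1 (11.9 TPM) and Arl13b (10.4 TPM) formed the next pair, again with overlapping ranges. Rpgrip1l (5.29 TPM), Nphp4 (4.41 TPM) and Cep290 (3.37 TPM), all of the transition zone, were the lowest, and neighbours among them overlapped. Among the tested genes these means ran from the 20.4th percentile (Cep290) to the 75.5th (Cspp1).

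**Figure D1:**
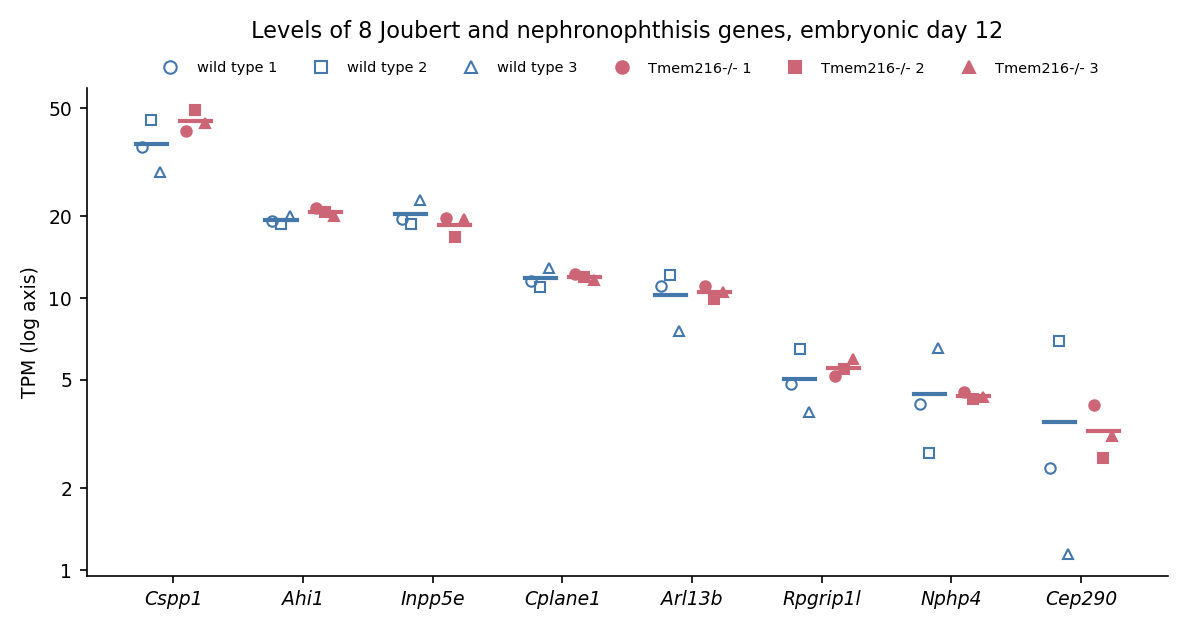
TPM on a log axis for each gene in each sample; open blue symbols are wild type, filled red symbols Tmem216-/-, the symbol shape is the replicate number and the horizontal bar the group mean. The genes are ordered by mean level, from Cspp1 (40.8 TPM) to Cep290 (3.37 TPM), and wild type replicates 2 and 3 are the highest and lowest wild type samples, in either order, for all 8 genes.

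Cep290, a long coiled-coil protein that helps to build the Y-shaped links, varied most. It lies on chromosome 10 at 100487558 to 100574840 (plus strand; mm10, with positions from GENCODE M21). Its levels were 2.38, 6.95 and 1.15 TPM in wild type samples, and 4.05, 2.59 and 3.12 TPM in Tmem216-/- samples. Wild type replicate 2 held the highest value and wild type replicate 3 the lowest, and all 3 mutant samples fell between them. The means were 3.49 ± 3.06 and 3.25 ± 0.739 TPM (SD, n = 3 each).

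Rpgrip1l, a C2-domain scaffold of the transition zone (chromosome 8, 91217030 to 91313262, minus strand), was 4.82, 6.51 and 3.82 TPM in wild type, against 5.18, 5.47 and 5.95 TPM in Tmem216-/-. As with Cep290, wild type replicates 2 and 3 were the extremes and the groups overlapped. Nphp4, which binds Rpgrip1l in the nephronophthisis module of the gate (chromosome 4, 152476706 to 152563183, plus strand), was 4.08, 2.70 and 6.56 TPM and then 4.53, 4.24 and 4.34 TPM. Here the order of wild type replicates 2 and 3 was the opposite, and the mutant samples agreed to within an SD of 0.147 TPM. Within a sample, the ratio of Cep290 to Nphp4 was 0.583, 2.57 and 0.175 in wild type and 0.894, 0.611 and 0.719 in Tmem216-/-. Wild type therefore held both the highest and the lowest ratio.

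Ahi1 encodes jouberin, a WD40 and SH3 protein of the transition zone (chromosome 10, 20952547 to 21080429, plus strand). It was 19.25, 18.77 and 20.03 TPM in wild type, against 21.42, 20.69 and 20.05 TPM in Tmem216-/-. It was the only member whose groups did not overlap, by a margin of 0.02 TPM between the lowest mutant and the highest wild type value. The means were 19.3 ± 0.636 and 20.7 ± 0.685 TPM, a log2 fold change of 0.09. Of all tested genes, 9.57% did not overlap, and 4.75% did so with Tmem216-/- higher, so 1 of 8 is near the background. Its spread in wild type was small: only 3.7% of tested genes had a lower SD there.

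In the ciliary membrane, Arl13b is a small GTPase that activates Arl3 and holds Inpp5e in the cilium (chromosome 16, 62793685 to 62847040, minus strand). It was 11.11, 12.16 and 7.56 TPM in wild type, against 11.06, 9.89 and 10.55 TPM in Tmem216-/-. Wild type replicate 3 lay below the other 5 samples, which were close together. Inpp5e, the phosphatase that keeps the ciliary membrane poor in phosphatidylinositol 4,5-bisphosphate (chromosome 2, 26396249 to 26409203, minus strand), was 19.56, 18.67 and 23.04 TPM and then 19.74, 16.71 and 19.48 TPM. Wild type replicate 3 was the highest sample and Tmem216-/- replicate 2 the lowest. The ratio of Arl13b to Inpp5e was 0.328 in wild type replicate 3 and 0.542 to 0.651 in the other 5 samples.

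Cplane1, which with Intu, Fuz and Wdpcp recruits the transport machinery of the cilium to the basal body, had the smallest difference between genotypes (chromosome 15, 8169106 to 8271158, plus strand). Its levels were 11.57, 11.02 and 12.90 TPM in wild type, against 12.22, 11.91 and 11.68 TPM in Tmem216-/-, and the mutant values lay inside the wild type range. Cspp1, a microtubule-binding protein of the spindle, centrosome and axoneme (chromosome 1, 10037987 to 10136768, plus strand), was 36.00, 45.36 and 29.21 TPM and then 41.02, 49.01 and 44.07 TPM. Its groups overlapped, since wild type replicate 2 exceeded 2 of the mutant samples. The means were 36.9 ± 8.11 and 44.7 ± 4.03 TPM, the largest difference between group means among the 8 genes on the log2 scale.

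None of the 8 genes passed the test between Tmem216-/- and wild type. In limma 0 of 8 were called, against the background of 0.104%, and 0 of 8 had an unadjusted p under 0.05, against 4.46% of all tested genes. Their adjusted p ran from 0.983 to 0.996. The log2 fold changes, on the scale of log2(TPM + 1), were 0.29 for Cspp1, 0.13 for Rpgrip1l, 0.12 for Cep290, 0.09 for Ahi1, 0.05 for Arl13b, 0.04 for Nphp4, 0.01 for Cplane1 and -0.12 for Inpp5e. Thus 7 of 8 were above 0, with a median of 0.07 beside -0.008 over all tested genes. That median over all genes is not matched to the members for the share of G and C in their transcripts, described below. The median size of the change, without regard to sign, was 0.11 for the members and 0.12 for all tested genes. For Cep290 the group means in TPM gave the opposite order (a ratio of 0.931), as they did for Nphp4 (0.983). Exact two-sided permutation p-values for the members ran from 0.1 (Ahi1) to 1.0 (Arl13b), and 0.1 is the smallest that 3 against 3 samples allow.

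The intervals show how large a change these samples could hide. On the log2(TPM + 1) scale, which understates changes of low genes, the 95% interval was -0.99 to 1.23 for Cep290 and -0.60 to 0.68 for Nphp4. It was -0.34 to 0.61 for Rpgrip1l, -0.40 to 0.50 for Arl13b and -0.11 to 0.69 for Cspp1. It was narrower for Ahi1 (-0.14 to 0.33), Cplane1 (-0.27 to 0.30) and Inpp5e (-0.43 to 0.18). Folds in TPM were taken from the wild type mean of each gene and put on the same scale. A 2-fold change in either direction lay outside the interval for 7 of 8 genes, all but Cep290, and a 1.5-fold change lay outside it for 4 of 8, which were Ahi1, Arl13b, Cplane1 and Inpp5e. The number of reads behind each TPM value is unknown.

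**Figure D2:**
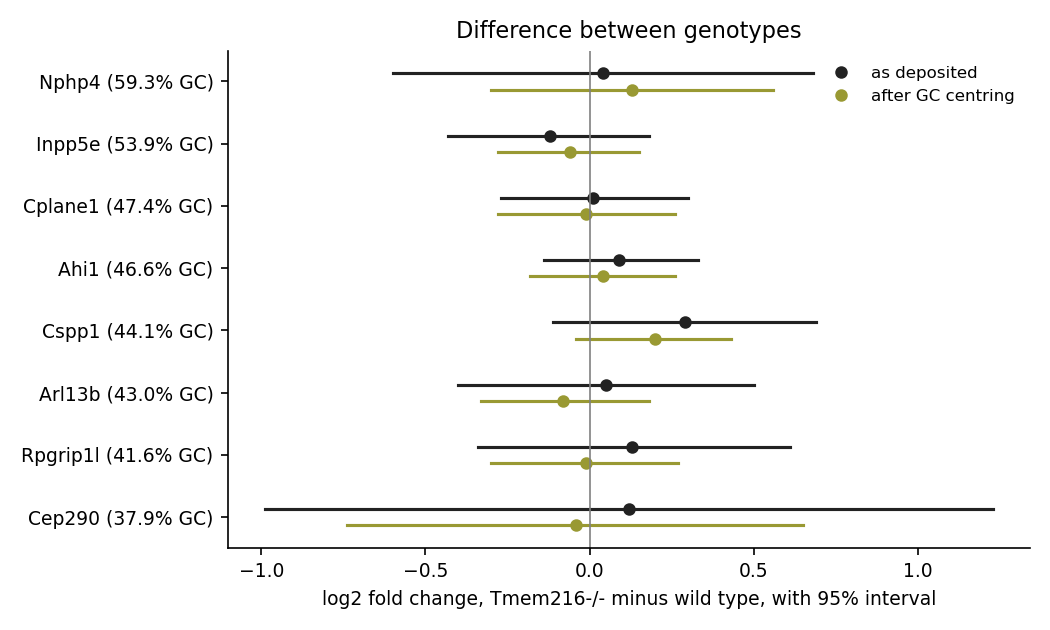
Log2 fold change on the log2(TPM + 1) scale (points) with its 95% interval (lines) for each gene, ordered by the GC content of its transcript; black is the fit to the deposited values and olive the fit after GC centring. All 16 intervals cross 0, and the widest is that of Cep290 (-0.99 to 1.23).

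The members varied far more among the wild type samples than among the mutant ones. The SD of log2(TPM + 1) was larger in wild type for 7 of 8 members, Ahi1 being the exception, and its median was 0.32 in wild type and 0.08 in Tmem216-/-. This was also the pattern of the whole table, where the wild type SD was the larger for 72.9% of tested genes and the medians were 0.24 and 0.12. Cep290 had a wild type SD of 0.96, above 96.6% of tested genes, and Nphp4 one of 0.52, above 85.8%.

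Over the whole table the direction of that spread followed the base composition of the transcripts, and 6 of the 8 members had the sign of their GC bin. GC content, the share of G and C, was taken from the GENCODE M21 transcript with the same length as the authors' table gives for the gene. It was 37.9% for Cep290, 41.6% for Rpgrip1l, 43.0% for Arl13b, 44.1% for Cspp1, 46.6% for Ahi1, 47.4% for Cplane1, 53.9% for Inpp5e and 59.3% for Nphp4, beside a median of 50.6% over tested genes. To show the contrast, 90 coding bases are given from each of the 2 members lowest and the 2 highest in GC. Each coding sequence was cut into successive stretches of 90 bases from the start codon. The stretches shown are, for each gene, the first whose GC content came nearest to that of the whole transcript. They are read 5′ to 3′ on the coding strand, and capitals mark G and C. They lie at coding bases 4411 to 4500 of Cep290 (37.8% GC), 721 to 810 of Rpgrip1l (41.1%), 1261 to 1350 of Inpp5e (53.3%) and 901 to 990 of Nphp4 (58.9%).
Cep290: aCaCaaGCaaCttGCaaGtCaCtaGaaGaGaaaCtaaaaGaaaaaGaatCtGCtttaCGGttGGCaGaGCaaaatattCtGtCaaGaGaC
Rpgrip1l: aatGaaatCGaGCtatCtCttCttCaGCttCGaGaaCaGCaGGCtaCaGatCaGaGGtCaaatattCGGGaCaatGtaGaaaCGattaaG
Inpp5e: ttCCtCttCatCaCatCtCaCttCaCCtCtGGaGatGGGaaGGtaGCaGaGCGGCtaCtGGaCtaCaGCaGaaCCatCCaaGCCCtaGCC
Nphp4: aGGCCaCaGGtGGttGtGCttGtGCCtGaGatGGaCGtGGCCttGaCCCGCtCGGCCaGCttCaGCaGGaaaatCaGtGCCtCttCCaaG

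The difference between wild type replicates 2 and 3, in log2(TPM + 1), was 1.89 for Cep290, 0.64 for Rpgrip1l, 0.62 for Arl13b and 0.62 for Cspp1. It was -0.09 for Ahi1 and -0.21 for Cplane1, -0.29 for Inpp5e and -1.03 for Nphp4. The 4 members lowest in GC were thus higher in replicate 2, and the 4 others were higher in replicate 3. Over the 10 equal bins of GC content that hold all tested genes with a matched transcript, the median of the same difference ran from 0.76 in the lowest bin (median GC 40.2%) to -0.43 in the highest (60.4%). Across these genes, which are not independent replicates, Spearman's rho of GC content with that difference was -0.57. Cep290, Arl13b, Cspp1, Inpp5e and Nphp4 went further than the medians of the bins they fall in, and Rpgrip1l went less far. Ahi1 and Cplane1 had the opposite sign to their bins, whose medians were 0.20 and 0.06. The log2 fold change of Tmem216-/- against wild type also went with GC content over these genes (Spearman's rho -0.39). Its median was 0.16, 0.11 and 0.06 in the 3 lowest bins, which hold Cep290, Rpgrip1l, Arl13b, Cspp1 and Ahi1. It was 0.02, -0.06 and -0.09 in the bins of Cplane1, Inpp5e and Nphp4. What sets these trends was not tested, and the labels give no batch.

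**Figure D3:**
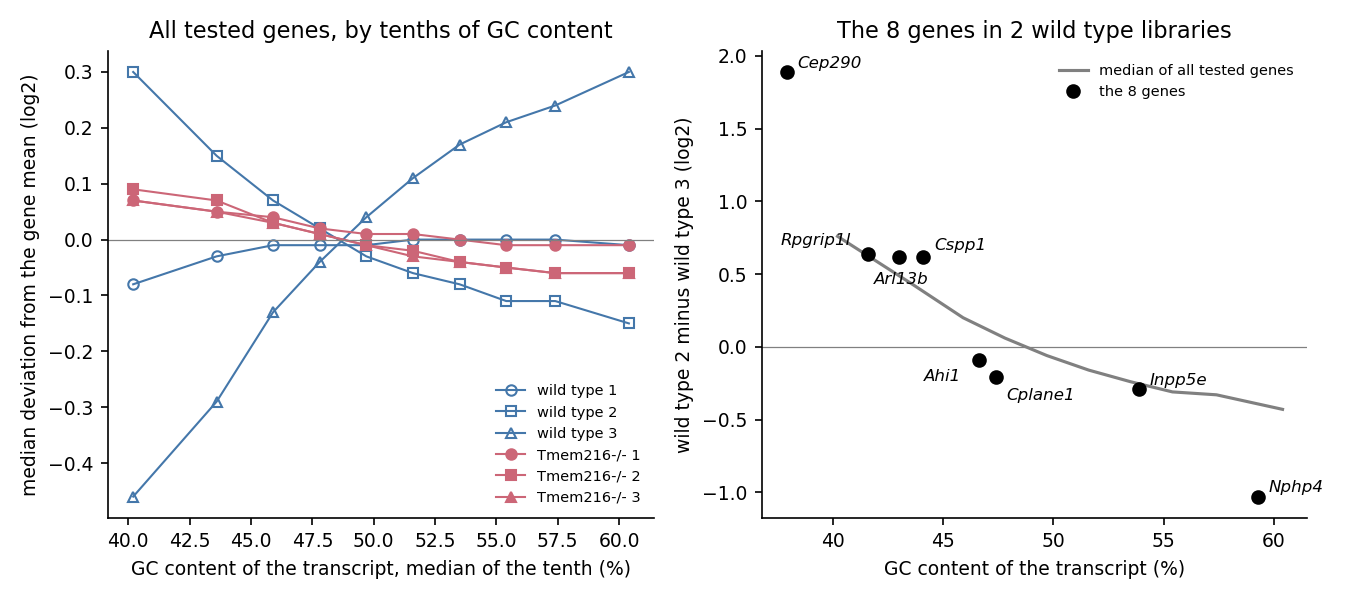
Left, the median deviation of log2(TPM + 1) from the gene mean in each sample, over 10 equal bins of transcript GC content; right, wild type replicate 2 minus replicate 3 (log2) against GC content, with the 8 genes as points and the median of all tested genes as a line. Wild type replicate 3 runs from -0.46 in the lowest bin to 0.30 in the highest and replicate 2 from 0.30 to -0.15, while the 8 genes run from 1.89 (Cep290) to -1.03 (Nphp4).

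Centring on GC content narrowed the wild type spread of most members and left the comparison without a call. For this alternative, added after seeing the data, the median deviation of each of 20 GC bins was subtracted from each sample, over the 15857 genes (96.6% of those tested) with a matched transcript. The wild type SD fell for 6 of 8 members, from 0.96 to 0.53 for Cep290, from 0.52 to 0.30 for Nphp4, from 0.32 to 0.05 for Rpgrip1l, from 0.33 to 0.10 for Arl13b, from 0.31 to 0.13 for Cspp1 and from 0.15 to 0.02 for Inpp5e. It was larger for Ahi1 (0.04 to 0.13) and Cplane1 (0.11 to 0.17). The median wild type SD went from 0.32 to 0.13 for the members. It also fell over all genes, from 0.24 for those tested to 0.18 for those in the centred fit. In Tmem216-/- the medians stayed at 0.08 for the members and 0.12 for all genes. In limma 0 of 8 members were called, against 0.12% of the genes in that fit, and 0 of 8 had an unadjusted p under 0.05, against 5.23%. The members now lay on both sides of 0, 3 above and 5 below, and their median log2 fold change was -0.01. This is partly built in, since the centring acts on samples of both genotypes. A genotype difference shared by the genes of a bin is removed with the rest. Cspp1 had the largest value, 0.20 (95% interval -0.04 to 0.43, adjusted p = 0.994), and Nphp4 followed with 0.13. Cep290 was at -0.04 (-0.74 to 0.65), Rpgrip1l at -0.01, Arl13b at -0.08, Inpp5e at -0.06, Cplane1 at -0.01 and Ahi1 at 0.04. The groups of Ahi1 overlapped on this scale. A 2-fold change of the TPM level in either direction lay outside the interval for 7 of 8, all but Cep290, and a 1.5-fold change for 6 of 8, all but Cep290 and Nphp4.

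The direction for Cep290 and Nphp4 turned with single wild type samples. Without wild type replicate 2 the log2 fold change was 0.64 for Cep290 and -0.21 for Nphp4; without wild type replicate 3 it was -0.30 and 0.31. Rpgrip1l ran from -0.02 to 0.30, Arl13b from -0.14 to 0.17 and Cplane1 from -0.03 to 0.07 when samples were left out in turn. Cspp1 (0.14 to 0.45), Ahi1 (0.07 to 0.12) and Inpp5e (-0.18 to -0.04) kept their sign. No member was called in limma under any alternative run. Cspp1 was the only member with an unadjusted p under 0.05 from limma in any of them. It reached that level with array weights (log2 fold change 0.30, limma adjusted p = 0.136). It also did so without wild type replicate 2 (log2 fold change 0.45, limma adjusted p = 0.411). The same level was reached by 3464 of 16411 tested genes with array weights, and by 1906 of 16411 without wild type replicate 2. With so many genes at that level, these results do not set Cspp1 apart.

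Partner genes of the same pathways were also without a call. Of 74 genes on 5 lists written from general knowledge, 73 were tested, since Ttll6 was below the filter. In limma 0 of 73 were called in either direction, against 0.104% of all tested genes. An unadjusted p under 0.05 was found for 1 of 73, against 4.46% of all tested genes. With so few calls over the whole table, these counts say nothing about the partner genes in particular. Their median log2 fold change was 0.04 (43 higher, 30 lower). The groups of 6 of the 73 did not overlap (4 higher, among them Cc2d2a and 2700049A03Rik, and 2 lower, Anks6 and Unc119), read against the 9.57% of all tested genes.

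**Figure D4:**
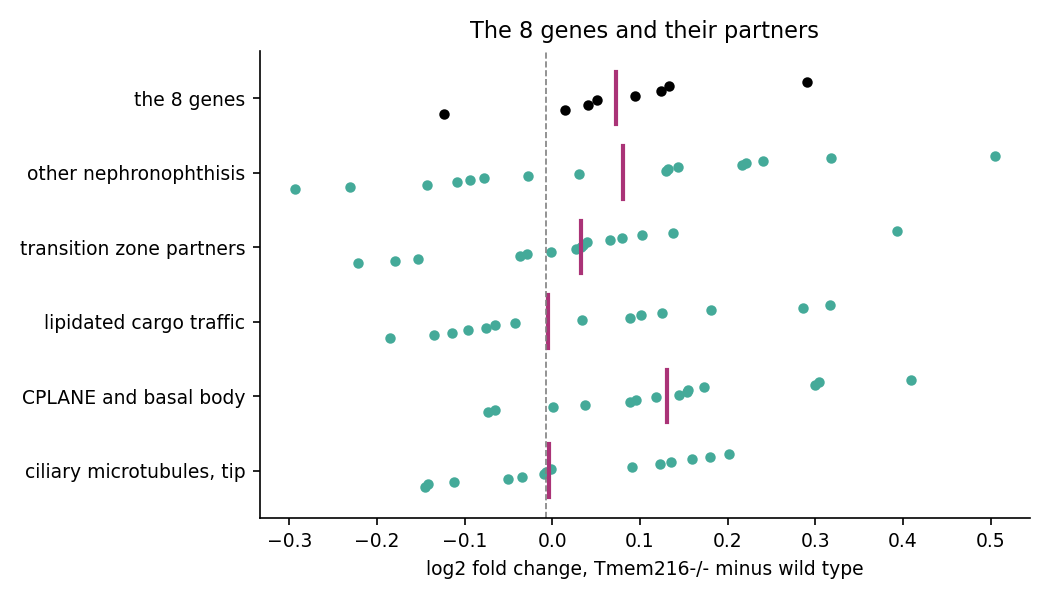
Log2 fold change on the log2(TPM + 1) scale of each tested gene (points, sorted within a row) for the 8 genes and 5 lists of partner genes; the purple bar is the median of the row and the dashed line the median of all tested genes (-0.008). List medians run from -0.00 to 0.13, and the lowest point is Anks6 (-0.29).

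Among 16 other nephronophthisis genes, 9 were higher and 7 lower, with a median of 0.08. Glis2, a zinc finger transcription factor, was at -0.23, and Anks6, which activates the kinase Nek8 of the inversin compartment, at -0.29. Both are GC-rich (57.8% and 62.2%) and were highest in wild type replicate 3, at 35.07 and 12.73 TPM. After GC centring Glis2 was at -0.15 and Anks6 at -0.20, so both kept their sign. The part of GC content in these values was not tested.

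Of 15 transition zone partners, 9 were higher and 6 lower (median 0.03). In limma 0 of them had an unadjusted p under 0.05, against 4.46% of all tested genes. B9d2, a B9-domain subunit of the gate complex, was 28.7 ± 5.02 and 24.4 ± 3.18 TPM (-0.22). Cep162, which ties that complex to axonemal microtubules, was 3.90, 7.66 and 3.41 TPM and then 7.33, 5.0 and 7.49 TPM (0.39, interval -0.31 to 1.10). Cc2d2a, a C2-domain subunit, was 6.30 ± 0.0603 and 7.05 ± 0.727 TPM (0.14), and Tmem67, the receptor-like meckelin, was 6.74 ± 0.401 and 7.31 ± 0.389 TPM (0.10). The intervals of all 4 included 0.

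The 14 genes of lipidated cargo traffic, the route by which Inpp5e reaches the cilium, were split 7 to 7 with a median of -0.00. Arl3, the GTPase that Arl13b activates to release such cargo, was 153.97, 157.72 and 169.51 TPM in wild type, against 168.87, 173.94 and 204.70 TPM in Tmem216-/- (0.18, interval -0.06 to 0.42). Its groups overlapped by 1 sample. Unc119, a cargo carrier released by Arl3, was 85.5 ± 9.42 and 74.8 ± 1.30 TPM (-0.19), and its paralogue Unc119b was 53.1 ± 9.01 and 47.8 ± 0.101 TPM (-0.14). Arl6, the GTPase that recruits the BBSome coat, was at 0.29 (15.2 ± 3.56 and 18.7 ± 3.69 TPM).

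Of 14 CPLANE and basal body genes 12 were higher and 2 lower, with a median of 0.13 that was 0.07 after GC centring. Pibf1, a centriolar satellite protein with a transcript of 41.3% GC, was 5.50, 9.52 and 3.30 TPM in wild type, against 8.13, 7.73 and 7.63 TPM in Tmem216-/- (0.41, interval -0.34 to 1.16). Its wild type extremes were the same samples as those of Cep290, and its log2 fold change was 0.26 after GC centring. The gene 2700049A03Rik, which encodes the Talpid3 centriole protein, was 8.68 ± 0.18 and 9.78 ± 0.614 TPM (0.15), and Cep120, a centriole elongation protein, was 26.9 ± 2.23 and 29.2 ± 0.505 TPM (0.12). Rsg1, a GTPase partner of Cplane1, was 1.90 ± 0.79 and 2.53 ± 0.756 TPM (0.30).

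Of 14 tested genes of ciliary microtubules and their tip, 6 were higher and 8 lower, with a median of -0.00. Fam149b was 46.0 ± 5.81 and 52.0 ± 3.76 TPM (0.18), and Tedc1, a centriole triplet protein, was 24.3 ± 2.36 and 26.5 ± 1.36 TPM (0.12). Kif7, the kinesin that organises the ciliary tip for Gli factors, was 11.9 ± 1.23 and 10.6 ± 0.469 TPM (-0.15). Cep41, which aids tubulin glutamylation in the axoneme, was 17.7 ± 1.71 and 16.1 ± 2.70 TPM (-0.14). All 4 had an adjusted p of 0.983.

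Among themselves, Ahi1 and Cplane1 were the closest over the 6 samples. The root mean square difference of their deviations from the gene mean was 0.05 on the log2(TPM + 1) scale. This distance is not scaled to the spread, so it is small for genes that vary little. These 2 had the lowest wild type SDs of the members (0.04 and 0.11). Rpgrip1l was nearest to Cspp1 (0.11), Arl13b to Rpgrip1l (0.12) and Inpp5e to Cplane1 (0.10). Nphp4 was nearest to Inpp5e (0.24) and farthest from Cep290 (0.86). The mean course of the 8 genes was -0.07, 0.11 and -0.16 in wild type and 0.08, -0.01 and 0.04 in Tmem216-/-. It is an average of unlike genes, not a course that they share. Cep290 weighed most in wild type replicates 2 and 3, with deviations of 0.98 and -0.91. Nphp4 went the other way there (-0.52 and 0.51), and the other members lay between these 2. Provisional symbols (Gm and Rik names) and bare identifiers were passed over. Of the other tested genes, the 5 nearest to the mean course were Gprasp1 (0.013), Hcfc2 (0.017), Zfp473 (0.020), Mrpl21 (0.024) and Pms2 (0.024).

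Several members share bases with a gene on the opposite strand, and no source used here states that strand was used in counting. Counted over the whole locus, introns included, Inpp5e overlaps Pmpca by 874 bases (mean 73.1 TPM), Cspp1 overlaps Cops5 by 182 bases (106 TPM), and Nphp4 overlaps Kcnab2 by 1166 bases (15.0 TPM). Cep290 overlaps 4930430F08Rik by 2576 bases (9.40 TPM). Reads from the shared bases cannot be told apart without strand, so these 4 levels are uncertain to that extent. The same holds for Tmem216, which shares 13789 bases of its locus with Cpsf7 (77.4 TPM).

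Regulatory factors of the RFX family bind the X-box, a pair of inverted arms in promoters of many cilium genes. RefSeq windows (GRCm38.p6) from 250 bases before to 50 bases after a start were at hand for 7 of the 8 genes, in 11 windows; Cspp1 had no entry. The arm GTTNCC, or GGNAAC on the other strand, was found in 7 of these 11 windows, which belong to 6 of the 7 genes (all but Inpp5e), and in 45.3% of all 32851 windows. Both arms within 0 to 3 bases of each other (GTTNCC then GGNAAC, which reads the same on both strands) were found in 1 of the 11 windows, which belongs to Ahi1, and in 0.804% of all windows. The match in Ahi1 is shown because it was the only complete pair. The stretch lies at chr10:20952560-20952589 on the plus strand, and the pair, in capitals, begins at base 22 from the start.
Ahi1: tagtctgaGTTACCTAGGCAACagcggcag
A match is a description of these letters only; binding was not measured here.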

How the data were processed

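Total RNA of 6 mouse samples was sequenced from TruSeq libraries, per the labels' protocols. The authors deposited TPM values per gene with 2 decimals and, per the submitters' processing notes, used CASAVA 1.8, HISAT2, StringTie and RSEM with mm10; their roles, the annotation release and the depth are not given in the sources used here. The deposited table also gives a gene length, read here as given. The members and lists were chosen with earlier results of these data known.

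A gene was tested where 3 or more of the 6 samples reached 1 TPM (16411 genes). Of the partner symbols, 3 were matched through RefSeq synonyms. Values were log2(TPM + 1), compared by limma 3.58.1 (R 4.3.3; lmFit, eBayes with trend, two-sided) with Benjamini-Hochberg adjustment over all tested genes; no count model was used. Intervals are 95% from the moderated SE. Of repeated symbols, the row with the highest mean kept the plain name. Named genes are the members, Tmem216, the 4 genes of each partner list with the smallest p, and the 5 genes nearest in pattern. The search for near patterns left out Gm and Rik names, bare identifiers and the extra rows of repeated symbols. Of the partner genes so chosen, 2 are not reported here by name; counts and medians of the lists include them. Alternatives were pseudocounts, filters, scalings, removal of abundant and cardiac genes, variance models, array weights, a replicate block and samples left out; GC centring and the loss of both wild type replicates 2 and 3 were added after seeing the data. The fit was tested on simulated data. Motif and pattern searches used Python 3.11.15.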

Additional observations from a re-analysis of the deposited data

How the results depend on the processing

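The count of members called was 0 under each of 20 alternatives, and their median log2 fold change ran from -0.01 to 0.12. Against 17 genes called over the whole table, limma called 246 with array weights, and 0 with no filter, with abundant and cardiac genes removed, or without both wild type replicates 2 and 3 (1207, 741 and 1396 genes at an unadjusted p under 0.05). With samples left out in turn it called 0 to 27; the 0 was without wild type replicate 1 (518 genes were then at an unadjusted p under 0.05). Leaving out wild type replicate 2 or 3 gave 2 and 1 calls, and without Tmem216-/- replicates 1, 2 or 3 it called 27, 9 and 7. Tmem216 fell under every alternative but missed the threshold in some: -3.58 with abundant and cardiac genes removed (adjusted p = 0.0823), -4.31 with a pseudocount of 0.1 (0.0667), -3.55 with no filter (0.0874), -3.52 with GC centring and the replicate block (0.0565) and -3.81 without both wild type replicates 2 and 3 (0.217). With samples left out it ran from -3.81 to -3.25.

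Some members turned sign without being called. With GC centring, with or without the replicate block, Arl13b was -0.08, Cep290 -0.04, Cplane1 -0.01 and Rpgrip1l -0.01. Arl13b was also -0.07 with array weights and -0.08 without both wild type replicates. With samples left out Arl13b ran from -0.14 to 0.17, Cep290 from -0.30 to 0.64, Cplane1 from -0.03 to 0.07, Nphp4 from -0.21 to 0.31 and Rpgrip1l from -0.02 to 0.30. The cause was not tested. None of 399 values of the named partner genes turned sign or was called. A filter at 5 TPM left out Cep290 and Nphp4.

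Same-numbered samples share only a number: their deviations from the group means correlated at 0.016, -0.093 and 0.10, and 2 of 6 samples correlated best with their own number. With the replicate block 25 genes and 0 members were called. Array weights came from limma's gene-by-gene method, since its default did not converge, and were 0.376 and 0.213 for wild type replicates 2 and 3, the lowest of the 6. Without counts, the precision of low genes such as Cep290 cannot be set from depth.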
